A study of Homo sapiens with 12 samples.

Results

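Transcripts of 10 genes were followed across 12 messenger RNA libraries of cultured human neuroblastoma cells. They comprised the co-activators YAP1 and WWTR1 (whose protein is TAZ), their DNA-binding partners TEAD1, TEAD2, TEAD3 and TEAD4, and the target genes CCN1 (CYR61), CCN2 (CTGF), ANKRD1 and AMOTL2. These members were chosen by name, as 10 of the 61552 genes in the deposited table, and all 10 passed the filter on low counts that left 20304 genes for testing.

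YAP1 and TAZ carry the output of the Hippo pathway. When its kinases LATS1 and LATS2 phosphorylate them they are held in the cytoplasm or degraded, and when they are not phosphorylated they enter the nucleus, bind TEAD factors and raise the transcription of genes such as CCN1, CCN2, ANKRD1 and AMOTL2. Transcript levels of YAP1 and WWTR1 therefore do not show how much of either protein is active. In neuroblastoma, YAP1 and TAZ are known as markers of the mesenchymal cell state, as opposed to the adrenergic state. In other cancer cells, high YAP1 or TAZ activity has been linked to sensitivity to ferroptosis, an iron-dependent death by lipid peroxidation.

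The labels put 3 libraries in each of 4 groups, all labelled WT in genotype: SK-N-BE(2) with ML210, SK-N-BE(2) control, SK-N-AS with ML210 and SK-N-AS control. ML210 binds covalently to GPX4, an enzyme that reduces lipid peroxides, and inhibits it; the exposure was overnight. SK-N-BE(2) stands for MYCN-amplified and SK-N-AS for non-amplified neuroblastoma in the series, with 1 line each, so that effects of the line and of MYCN cannot be told apart. Replicate 1, 2 and 3 of each group carried the batch labels 1, 2 and 3, and no label says whether they were separate cultures, so every p-value here speaks of the spread among these 12 libraries, which may be technical.

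MYCN went against the line labels. It averaged 0.154 CPM (counts scaled to a common library size, in the usual CPM unit) in SK-N-BE(2) ML210 and 0.166 CPM in SK-N-BE(2) control libraries, against 3855 ± 115 CPM in SK-N-AS ML210 and 3558 ± 122 CPM in SK-N-AS control libraries (SD, n = 3 each). The libraries are therefore called BE(2)-labelled and AS-labelled throughout, and no difference between them is given as one of MYCN-amplified against non-amplified cells. Whether the line labels were exchanged was not tested; an exchange would turn the direction of every difference between the lines given here. The marker lists also separated them. The 9 adrenergic neuroblast markers summed to 991 to 1482 CPM in BE(2)-labelled and 5926 to 6780 CPM in AS-labelled libraries, whereas the 10 mesenchymal markers summed to 4042 to 5332 CPM in BE(2)-labelled and 247 to 420.4 CPM in AS-labelled libraries. Such sums are carried by the most abundant genes. In controls, 8 of the 9 adrenergic markers were lower and 1 higher in BE(2)-labelled libraries (edgeR quasi-likelihood test, adjusted p under 0.05). Of all genes tested, 35.2% were lower and 33.9% higher. Scaled by library totals, 7 of these markers were lower and 1 higher, beside 5550 lower and 8575 higher of all 20304 genes. Library totals lay between 54047293 and 83481963 counted reads.

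The best known TEAD recognition letters are CATTCC, or GGAATG on the other strand. They were searched, on both strands, in the 250 bases before each start that the RefSeq promoter table (GRCh38.p14) gave, which covered 7 of the 10 members in 10 windows. The AP-1 letters TGANTCA, with any base allowed at N, and the SRF motif known as the CArG box were searched in the same way. No AP-1 match overlapped a TEAD match. CCN2 held 3 TEAD matches, 169, 104 and 95 bases before its start, and ANKRD1 held 2, at 220 and 128 bases. ANKRD1 also held an AP-1 match at 195 bases, which read TGATTCA, with T at the free base. YAP1 itself held 1 TEAD match at 162 bases, and the second start of AMOTL2 held 1 at 69 bases. No match to these 3 motifs was in the windows of WWTR1, TEAD2 and TEAD3. Of all 35116 windows of this length, 11.9% held at least 1 TEAD match, 0.94% at least 2 and 0.083% at least 3, while 6.57% held an AP-1 match and 1.16% a CArG box. The 4 windows with matches are printed 5′ to 3′ on the gene's strand, with TEAD and AP-1 letters in capitals, because the 2 genes with the most matches were the 2 lowest members in BE(2)-labelled libraries.
CCN2, chr6:131951373-131951622, minus strand: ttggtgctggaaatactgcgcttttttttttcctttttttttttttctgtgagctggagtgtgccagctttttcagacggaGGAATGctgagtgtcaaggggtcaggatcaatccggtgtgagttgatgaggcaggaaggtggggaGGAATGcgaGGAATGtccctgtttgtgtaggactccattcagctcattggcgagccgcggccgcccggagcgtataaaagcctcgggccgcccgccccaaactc
ANKRD1, chr10:90921088-90921337, minus strand: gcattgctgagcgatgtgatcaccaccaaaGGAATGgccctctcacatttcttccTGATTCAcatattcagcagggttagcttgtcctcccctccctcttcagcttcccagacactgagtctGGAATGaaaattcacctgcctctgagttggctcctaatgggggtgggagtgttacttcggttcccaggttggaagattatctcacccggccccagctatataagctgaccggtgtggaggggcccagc
AMOTL2, second start, chr3:134374448-134374697, minus strand: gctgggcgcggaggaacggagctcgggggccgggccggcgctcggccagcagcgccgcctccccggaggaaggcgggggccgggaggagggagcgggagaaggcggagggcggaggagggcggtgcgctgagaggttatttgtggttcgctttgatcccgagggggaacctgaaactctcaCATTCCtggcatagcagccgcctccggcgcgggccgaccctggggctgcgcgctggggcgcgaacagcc
YAP1, chr11:102110197-102110446, plus strand: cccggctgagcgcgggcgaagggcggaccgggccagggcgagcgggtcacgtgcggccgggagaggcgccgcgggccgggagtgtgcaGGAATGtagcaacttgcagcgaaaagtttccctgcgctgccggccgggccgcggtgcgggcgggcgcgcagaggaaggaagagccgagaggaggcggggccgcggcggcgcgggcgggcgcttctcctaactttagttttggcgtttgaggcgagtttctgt
A match of letters describes the window and does not show that a TEAD factor is bound there.

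The line label set the level of most members. In the control libraries, 8 of the 10 members were higher in BE(2)-labelled than in AS-labelled cells and none was lower (edgeR quasi-likelihood test, Benjamini-Hochberg adjusted p under 0.05 over all genes tested). Among all genes tested, 33.9% were higher and 35.2% lower, 69.2% in all, so that a difference as such was common in this comparison. The members had a median log2 fold change of 3.73, against -0.0052 for all genes tested. Scaled by library totals in place of TMM, the median of all genes was 0.24 and the higher share of all called genes was 60.7% rather than 49.1%, while the members stayed at 8 higher and 0 lower. In bulk libraries, fewer cells with a transcript and less of it per cell cannot be told apart. The same 8 members were called higher in the ML210 libraries, where 34.6% of all genes were higher and 34.5% lower, 69% in all; that comparison uses none of the control libraries. CCN2 and ANKRD1 were called in neither.

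**Figure D1:**
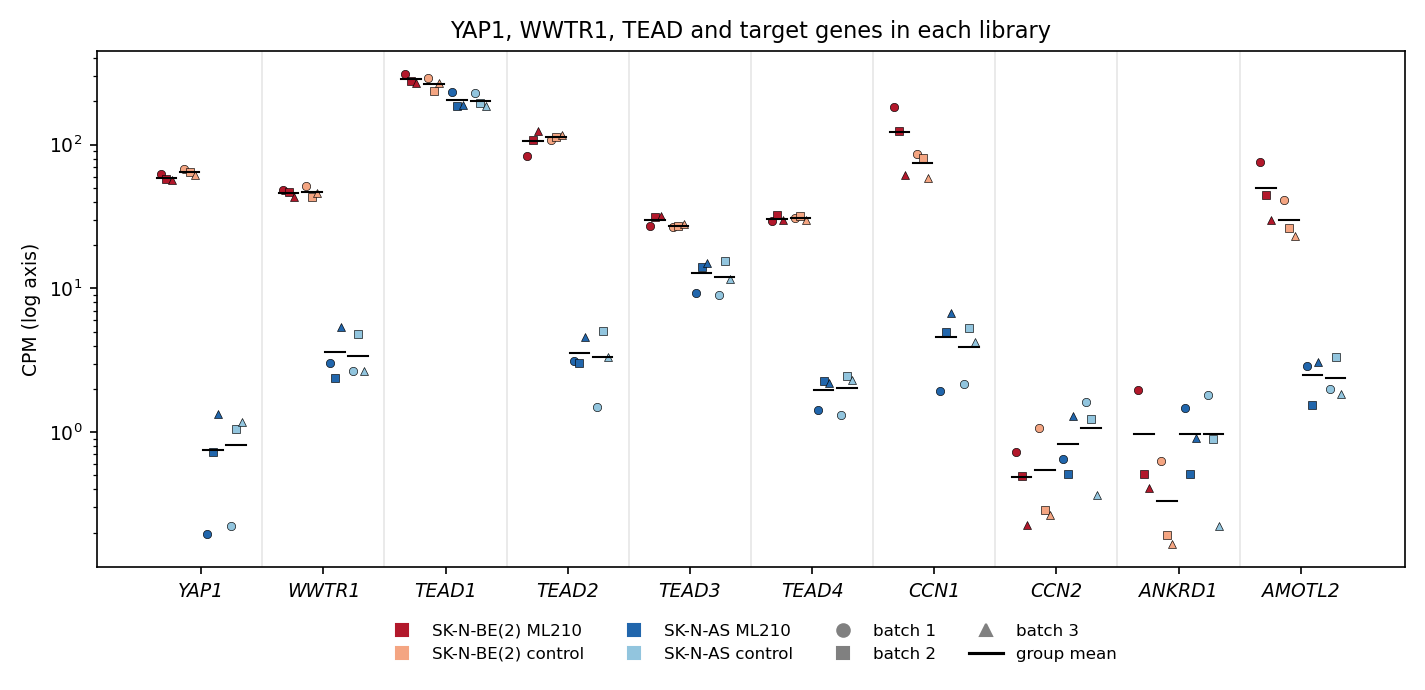
Levels of the 10 genes in each library, in CPM on a log axis, with the batch shown by the marker shape and the group mean by a bar. YAP1, WWTR1, TEAD2, TEAD4, CCN1 and AMOTL2 lie far lower in the AS-labelled libraries, TEAD1 lies between 185.7 and 309.3 CPM in all 12, and CCN2 and ANKRD1 stay below 2 CPM in every library.

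YAP1 (chromosome 11, 102110461 to 102233423, plus strand; coordinates of the genes are those of GENCODE 29 on GRCh38) showed the widest gap of the 10 members. Its level was 62.3, 57.6 and 57 CPM in BE(2)-labelled ML210 libraries of batches 1, 2 and 3, and 67.4, 64.5 and 61.3 CPM in their controls. In AS-labelled libraries it was 0.197, 0.734 and 1.34 CPM with ML210 and 0.221, 1.06 and 1.17 CPM in controls. The line labels did not overlap, and the AS-labelled values rested on 144 and 157 reads summed over the ML210 and the control libraries. The log2 difference in controls was 6.34 ± 0.51 (SE; adjusted p 2.39e-06), and in ML210 libraries 6.23 ± 0.51 (adjusted p 2.88e-06). It was 6.89 in ML210 libraries without the AS-labelled library of batch 3, and 8.17 in controls and 8.22 in ML210 libraries with only batch 1 of the AS-labelled libraries.

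The trace of YAP1 in AS-labelled libraries moved with the batch. Expressed as a percentage of the mean of the BE(2)-labelled controls, it was 0.306, 1.14 and 2.08% in ML210 libraries and 0.343, 1.64 and 1.81% in controls. For comparison, 41 other protein-coding genes had at least 50 CPM in every BE(2)-labelled library and less than 3% of that control mean in every AS-labelled one, a set chosen after the values were seen. Their median percentage was 0.343, 1.11 and 1.69% in AS-labelled ML210 libraries and 0.332, 1.61 and 1.45% in AS-labelled controls. YAP1 itself meets this rule. PTPRC, a leukocyte gene with 162.1 to 328.9 CPM in BE(2)-labelled libraries, had no read in batch 1 and 1.12 to 2.12 CPM in batches 2 and 3 of the AS-labelled libraries. The source of this shared trace was not tested.

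**Figure D2:**
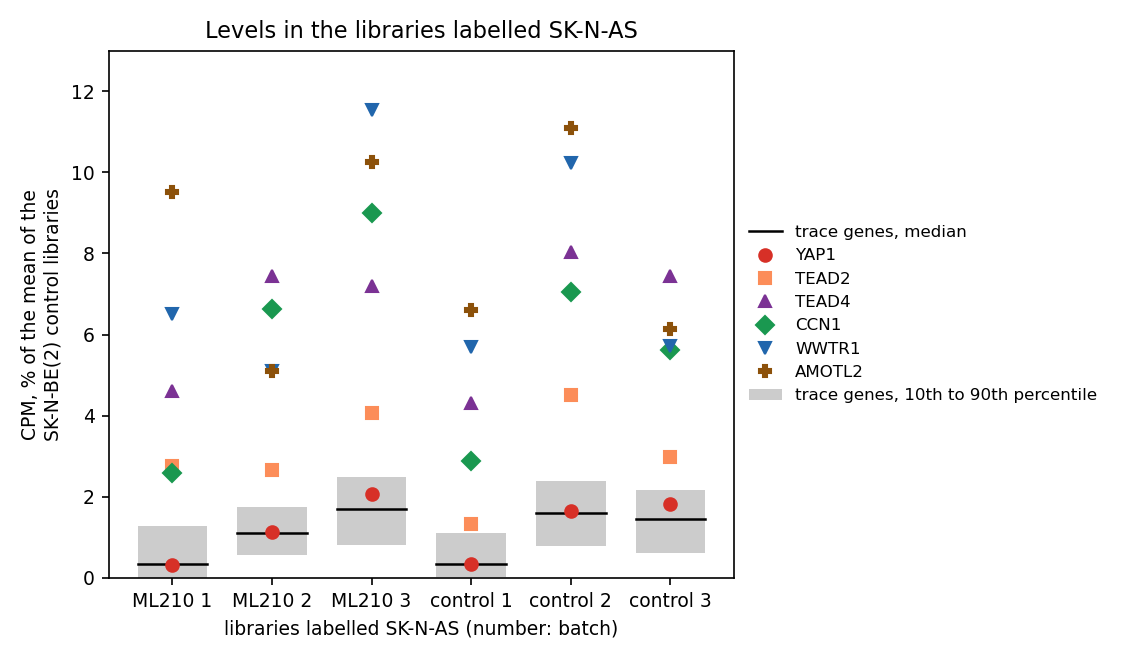
Level of 6 members in each AS-labelled library, as a percentage of their mean in the BE(2)-labelled controls, beside the median (line) and the 10th to 90th percentile (grey bar) of the 41 trace genes. YAP1 lies inside the grey bar in all 6 libraries and the other 5 members above it, but the 3% limit that chose the trace genes bounds the bar, so these positions are a description only.

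WWTR1 (chromosome 3, 149517235 to 149736714, minus strand), the TAZ gene, differed in the same direction. It had 48.4, 46.6 and 43.1 CPM in BE(2)-labelled ML210 libraries and 51.2, 43.3 and 46.2 CPM in BE(2)-labelled controls, against 3.05, 2.39 and 5.42 CPM in AS-labelled ML210 libraries and 2.67, 4.8 and 2.69 CPM in AS-labelled controls. All values of the BE(2)-labelled libraries exceeded all of the others, by a log2 difference of 3.80 ± 0.30 in controls (adjusted p 1.09e-06) and 3.67 ± 0.30 in ML210 libraries (adjusted p 1.45e-06). In AS-labelled libraries it was at 5.1 to 11.6% of the BE(2)-labelled control mean. Per length, the ratio of WWTR1 to YAP1 was 0.584 in BE(2)-labelled ML210 and 0.545 in BE(2)-labelled control libraries (means, n = 3 each). In AS-labelled libraries that ratio averaged 5.69 ± 5.13 with ML210 and 4.71 ± 3.83 in controls. The highest ratio in AS-labelled controls, 9.02, was that of batch 1, where YAP1 was lowest. These ratios depend on the length used, here 8413 bases of exon for WWTR1 and 6296 for YAP1. The longest transcripts, of 5030 and 5398 bases, would give higher ratios.

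Endothelial and mesenchymal markers also varied inside the AS-labelled group. The 5 endothelial markers summed to 26.2, 14.2 and 36.9 CPM in AS-labelled ML210 libraries and 28.4, 39.2 and 18.4 CPM in AS-labelled controls, against 0.692 to 2.44 CPM in BE(2)-labelled libraries. PECAM1, an adhesion molecule of endothelial cells, had 3.58, 2.46 and 6.6 CPM with ML210 and 3.45, 7.35 and 3.52 CPM in controls. The libraries with the most PECAM1, ML210 batch 3 and control batch 2, were also those with the most WWTR1 and AMOTL2. All 5 markers were below their same-batch control in batch 2, and in batch 3 all were above it but KDR, a receptor gene, at 0.678 times. In batch 1 their sum was slightly below control, with PECAM1, VWF and KDR above it and CDH5 and TEK below, while WWTR1 and AMOTL2 were above. The 10 mesenchymal markers summed to 254.7, 334.9 and 416.7 CPM in AS-labelled ML210 libraries and 247.1, 420.4 and 349.5 CPM in AS-labelled controls. This sum was above control in batches 1 and 3 and below it in batch 2, but the markers were mixed in batch 1. There COL1A1, COL3A1, PDGFRA, DCN, PRRX1 and VIM were at 0.539 to 0.993 times control, and PDGFRB, LUM and FN1 at 1.03 to 1.13 times. In batch 2 all of these were below control, and in batch 3 all but PRRX1 (0.986 times) were above. No marker of these 2 lists was without reads in any group, and the part of either list in the levels of WWTR1 and AMOTL2 was not tested.

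The TEAD factors, which carry the DNA-binding domain of the complex, covered a wide range of differences between the labels. TEAD1 (chromosome 11, 12674591 to 12944483, plus strand) was abundant under both labels. It had 309.3, 277.2 and 270.2 CPM in BE(2)-labelled ML210 libraries and 292.4, 235.9 and 268.4 CPM in BE(2)-labelled controls, against 233.8, 187.3 and 188.6 CPM in AS-labelled ML210 libraries and 227.6, 195.4 and 185.7 CPM in AS-labelled controls. The BE(2)-labelled controls and the AS-labelled controls did not overlap, yet the difference was small, at 0.39 ± 0.11 on the log2 scale (adjusted p 0.00585). In ML210 libraries it was 0.49 ± 0.11 (adjusted p 0.00121). Against the AS-labelled library of batch 1 alone, in which the trace genes were lowest, TEAD1 was not called in controls (0.22, adjusted p 0.175) or in ML210 libraries (0.29, adjusted p 0.0831).

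TEAD2 (chromosome 19, 49340595 to 49362457, minus strand) showed the widest gap in the family. It had 83.7, 108.7 and 123.8 CPM in BE(2)-labelled ML210 libraries and 108, 114 and 116.5 CPM in BE(2)-labelled controls, against 3.11, 3.01 and 4.59 CPM in AS-labelled ML210 libraries and 1.5, 5.09 and 3.35 CPM in AS-labelled controls. The groups of the 2 line labels were far apart, with a log2 difference of 5.11 ± 0.38 in controls (adjusted p 1.38e-06) and 4.88 ± 0.38 in ML210 libraries (adjusted p 1.86e-06). CD37 overlaps TEAD2 and had 1693 reads over all libraries, and the strand setting of the counting is not given in the sources used here.

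TEAD4 (chromosome 12, 2959330 to 3040673, plus strand) averaged 30.6 ± 1.66 CPM in BE(2)-labelled ML210 and 30.7 ± 1.02 CPM in BE(2)-labelled control libraries, against 1.97 ± 0.48 CPM in AS-labelled ML210 and 2.03 ± 0.61 CPM in AS-labelled control libraries (SD, n = 3 each). Its log2 difference was 3.93 ± 0.21 in controls (adjusted p 2.43e-09) and 3.94 ± 0.21 in ML210 libraries (adjusted p 2.63e-09), and no library of one label reached the other. TEAD3 (chromosome 6, 35473597 to 35497076, minus strand) differed less, with 30.1 ± 2.56 and 27.2 ± 0.68 CPM in BE(2)-labelled ML210 and control libraries, against 12.8 ± 3.07 and 12.1 ± 3.35 CPM in AS-labelled ML210 and control libraries. The log2 difference of TEAD3 was 1.18 ± 0.20 in controls (adjusted p 0.000201) and 1.23 ± 0.20 in ML210 libraries (adjusted p 0.000138). TEAD3 is best known from placenta and TEAD4 from the trophectoderm of the embryo and skeletal muscle, and here both were read in every library.

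Compared per kilobase of exon, the make-up of the TEAD pool differed between the labels. TEAD2 held 40.6 ± 5.22% of the summed per-length TEAD level in BE(2)-labelled ML210 libraries and 44 ± 2.02% in BE(2)-labelled controls, ahead of TEAD1 with 32.3 ± 4.66% and 30 ± 2.72% (SD, n = 3 each). In AS-labelled libraries TEAD1 held 75.8 ± 6.22% with ML210 and 76.8 ± 7.15% in controls, and TEAD2 held 4.61% and 4.32%. The share of TEAD3 was 11.4% and 10.4% in BE(2)-labelled ML210 and control libraries and 16.2% and 15.4% in AS-labelled ones. The summed TEAD level was 86.5 and 86.2 CPM per kb in BE(2)-labelled ML210 and control libraries, against 26 and 25.7 CPM per kb in AS-labelled ones. It was 5.85 ± 0.68 and 5.46 ± 0.28 times the summed level of YAP1 and WWTR1 in BE(2)-labelled ML210 and control libraries. In AS-labelled ones this multiple was 53.9 ± 21 and 52.8 ± 19.5 (SD, n = 3 each). TEAD transcripts in AS-labelled cells were chiefly those of TEAD1.

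**Figure D3:**
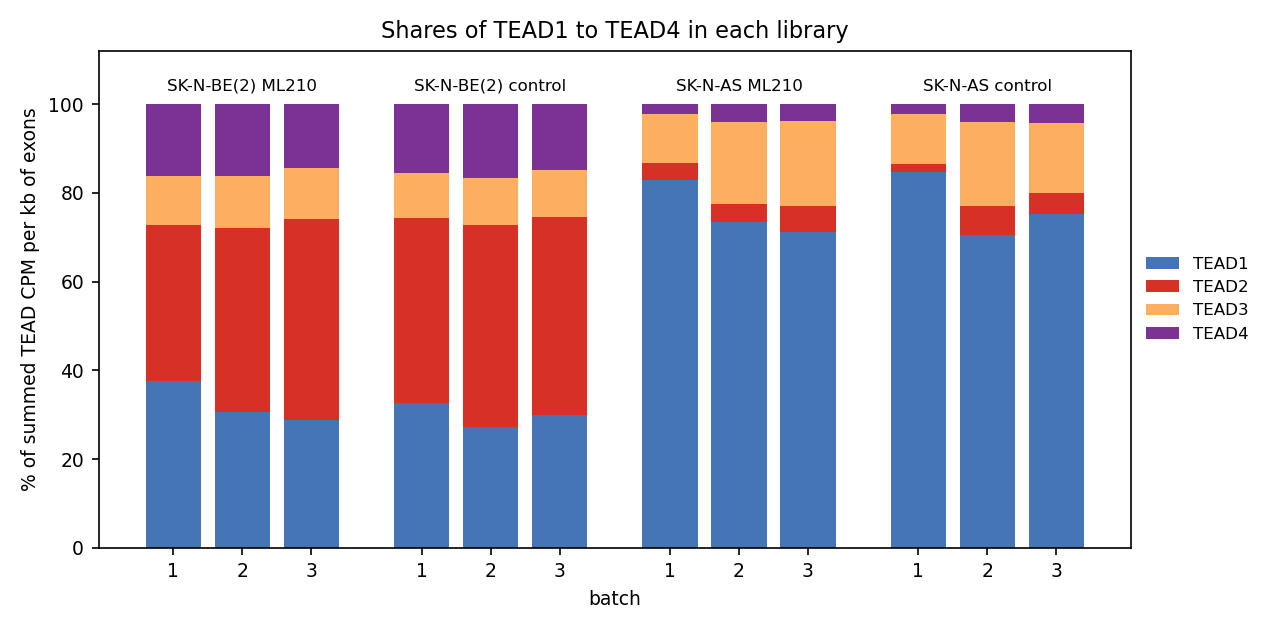
Share of each TEAD gene in the summed TEAD level per kilobase of exon, in %, for each of the 12 libraries grouped by line label and treatment. TEAD2 is the largest part in all but the batch 1 ML210 library of the BE(2)-labelled group, where TEAD1 is, and TEAD1 is the largest part in all 6 AS-labelled libraries.

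Of the 4 target genes, CCN1 and AMOTL2 differed between the labels as YAP1 and WWTR1 did. CCN1 (chromosome 1, 85580761 to 85583962, plus strand), a secreted matrix protein, had 182.5, 123.6 and 61.5 CPM in BE(2)-labelled ML210 libraries and 86.6, 80.7 and 58.2 CPM in BE(2)-labelled controls, against 1.95, 4.99 and 6.77 CPM in AS-labelled ML210 libraries and 2.16, 5.3 and 4.23 CPM in AS-labelled controls. The labels did not overlap, and the log2 difference was 4.28 ± 0.57 in controls (adjusted p 0.000132) and 4.73 ± 0.58 in ML210 libraries (adjusted p 7.32e-05). AMOTL2 (chromosome 3, 134355874 to 134375479, minus strand), an angiomotin that binds YAP1 and restrains it, had 75.7, 44.4 and 29.9 CPM in BE(2)-labelled ML210 libraries and 41.1, 26.3 and 23.1 CPM in BE(2)-labelled controls, against 2.87, 1.54 and 3.09 CPM in AS-labelled ML210 libraries and 1.99, 3.35 and 1.85 CPM in AS-labelled controls. It too had no overlap, with 3.66 ± 0.45 in controls (adjusted p 4.75e-05) and 4.33 ± 0.46 in ML210 libraries (adjusted p 1.66e-05).

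CCN2 and ANKRD1, the usual read-outs of YAP and TAZ activity, were near the floor in all 4 groups. CCN2 (chromosome 6, 131948176 to 131951373, minus strand), a matrix protein related to CCN1, had 0.729, 0.498 and 0.226 CPM in BE(2)-labelled ML210 libraries and 1.07, 0.29 and 0.265 CPM in BE(2)-labelled controls, against 0.649, 0.514 and 1.31 CPM in AS-labelled ML210 libraries and 1.61, 1.23 and 0.363 CPM in AS-labelled controls. These values overlapped between the labels and rested on few reads, for example 95 in the BE(2)-labelled ML210 libraries and 106 in their controls. The log2 difference was -1.0 ± 0.66 in controls (adjusted p 0.197) and -0.77 ± 0.67 in ML210 libraries (adjusted p 0.328). It was called in controls, at -1.93 (adjusted p 0.0235), when the BE(2)-labelled control of batch 1 was left out.

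ANKRD1 (chromosome 10, 90912096 to 90921276, minus strand), a nuclear ankyrin-repeat protein, had 1.97, 0.514 and 0.41 CPM in BE(2)-labelled ML210 libraries and 0.633, 0.193 and 0.168 CPM in BE(2)-labelled controls, against 1.48, 0.514 and 0.908 CPM in AS-labelled ML210 libraries and 1.81, 0.897 and 0.221 CPM in AS-labelled controls. The groups overlapped, and the log2 difference was -1.59 ± 0.85 in controls (adjusted p 0.12) and 0.01 ± 0.80 in ML210 libraries (adjusted p 0.991). In controls ANKRD1 was called lower in BE(2)-labelled libraries with the replicate block over all libraries (-1.53, adjusted p 0.012) and without the AS-labelled control of batch 3 (-2.06, adjusted p 0.0393). Batch 1 gave the highest ANKRD1 value in all 4 groups.

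**Figure D4:**
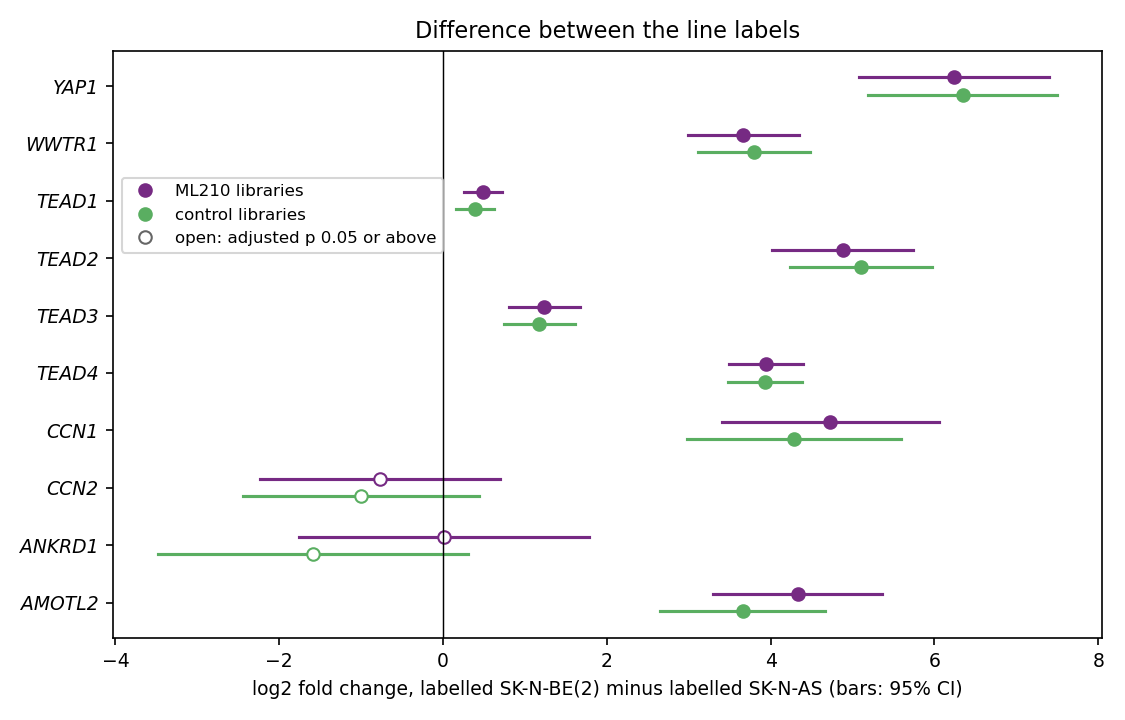
Log2 fold change of the 10 genes, BE(2)-labelled minus AS-labelled, with 95% confidence intervals, in the ML210 libraries (purple) and the controls (green); open points have an adjusted p of 0.05 or above. The intervals of 8 genes lie above 0 in both comparisons, and those of CCN2 and ANKRD1 span 0 in both.

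Set in order per length, the members fell into tiers. In BE(2)-labelled controls the order was TEAD2, CCN1, TEAD1, TEAD4, YAP1, TEAD3, WWTR1 and AMOTL2, with means between 37.9 and 5.04 CPM per kb, followed by CCN2 at 0.232 and ANKRD1 at 0.167 CPM per kb. CCN1 and TEAD1, WWTR1 and AMOTL2, and CCN2 and ANKRD1 overlapped in their library values. In BE(2)-labelled ML210 libraries CCN1 came first, at 49.9 ± 24.6 CPM per kb, but overlapped TEAD2 at 35.4 ± 6.8 CPM per kb. In AS-labelled controls TEAD1, at 19.7 ± 2.13 CPM per kb, and TEAD3, at 3.96 ± 1.1 CPM per kb, stood apart from the rest. There the members from CCN1, at 1.59 CPM per kb, down to AMOTL2, at 0.4 CPM per kb, each overlapped their neighbour, and YAP1 came last at 0.13 CPM per kb. CCN1 therefore exceeded CCN2 by far in BE(2)-labelled cells, and both were low in AS-labelled cells. The order of close neighbours rests on exon lengths and was not repeated with other lengths. WWTR1, with 8413 bases of exon and a longest transcript of 5030 bases, could rank higher with the latter.

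ML210 moved none of the 10 members past the threshold. In BE(2)-labelled libraries 0 of 10 members were called by edgeR's quasi-likelihood test, where 1.37% of all genes were, and 0 by DESeq2; 0 had an unadjusted p under 0.05, as 13.5% of all genes did. In AS-labelled libraries 0 of 10 were called, where 0.0296% of all genes were, again 0 by DESeq2 and 0 at an unadjusted p under 0.05 (6.89% of all genes). The mean of both responses (1.23% of all genes called) and their difference (0.00493% called) gave 0 of 10 as well, by edgeR and by DESeq2, and 0 of 10 at an unadjusted p under 0.05 (14.1% of all genes for the mean and 7.16% for the difference). GPX4 itself, the target of ML210, was called in neither label.

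Within BE(2)-labelled libraries the 3 target genes CCN1, AMOTL2 and ANKRD1 had the largest differences, all above their same-batch control. CCN1 was 2.11, 1.53 and 1.06 times its same-batch control in batches 1, 2 and 3, AMOTL2 1.84, 1.69 and 1.29 times, and ANKRD1 3.02, 2.44 and 2.22 times. All same-batch ratios were taken after adding a prior count of 2, which draws those of low genes such as ANKRD1 toward 1. Batch 1 had the largest ratio for all 3 genes, and the ML210 and control values overlapped between batches. The log2 fold change was 0.70 for CCN1 (95% CI -0.40 to 1.81, adjusted p 0.621), 0.73 for AMOTL2 (-0.14 to 1.60, adjusted p 0.474) and 1.56 for ANKRD1 (-0.33 to 3.45, adjusted p 0.486). These intervals include no change as well as increases of 3.5-fold, 3.03-fold and 10.95-fold. With the replicate block within each line label, the adjusted p was 0.212 for CCN1, 0.268 for AMOTL2 and 0.0976 for ANKRD1. Without the batch 1 ML210 library, the log2 fold change was 0.28 for CCN1, 0.28 for AMOTL2 and 0.48 for ANKRD1. Without the batch 1 control it was 1.0 for AMOTL2 and 2.39 for ANKRD1.

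TEAD1 and TEAD3 were also above their same-batch control in 3 of 3 BE(2)-labelled pairs, at 1.01 to 1.17 times, which made 5 of the 10 members, where 20.5% of all genes were. YAP1 was the only member below it in 3 of 3 pairs, at 0.925, 0.893 and 0.93 times, where 20.1% of all genes were below. Its log2 fold change was -0.13 (95% CI -0.97 to 0.71, adjusted p 0.955). For the other 6 members the log2 fold changes lay between -0.15 for CCN2 and 0.15 for TEAD3. CCN2 was at 0.689, 1.65 and 0.867 times its same-batch control, on 95 reads with ML210 and 106 in controls.

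In AS-labelled libraries no member was above its same-batch control in 3 of 3 pairs (15.6% of all genes were), and none was below in 3 of 3 (19.3% were). The log2 fold changes lay between -0.38 for CCN2 (95% CI -1.79 to 1.03) and 0.26 for CCN1 (-1.03 to 1.55). TEAD1, the only member of high level there, gave the narrowest interval, 0.002 with a 95% CI of -0.23 to 0.23. WWTR1 was at 1.14, 0.501 and 2.01 times its same-batch control, and AMOTL2 at 1.44, 0.465 and 1.66 times. Both were above control in batches 1 and 3 and below it in batch 2. The pairing of AS-labelled batches 2 and 3 rests on their labels alone, since same-batch libraries there were no more alike than different-batch ones. The difference of the responses, BE(2)-labelled minus AS-labelled, was 0.44 ± 0.74 for CCN1, 0.67 ± 0.60 for AMOTL2 and 1.60 ± 1.17 for ANKRD1 (adjusted p 0.96, 0.868 and 0.823), so the responses of the labels were not shown to differ.

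**Figure D5:**
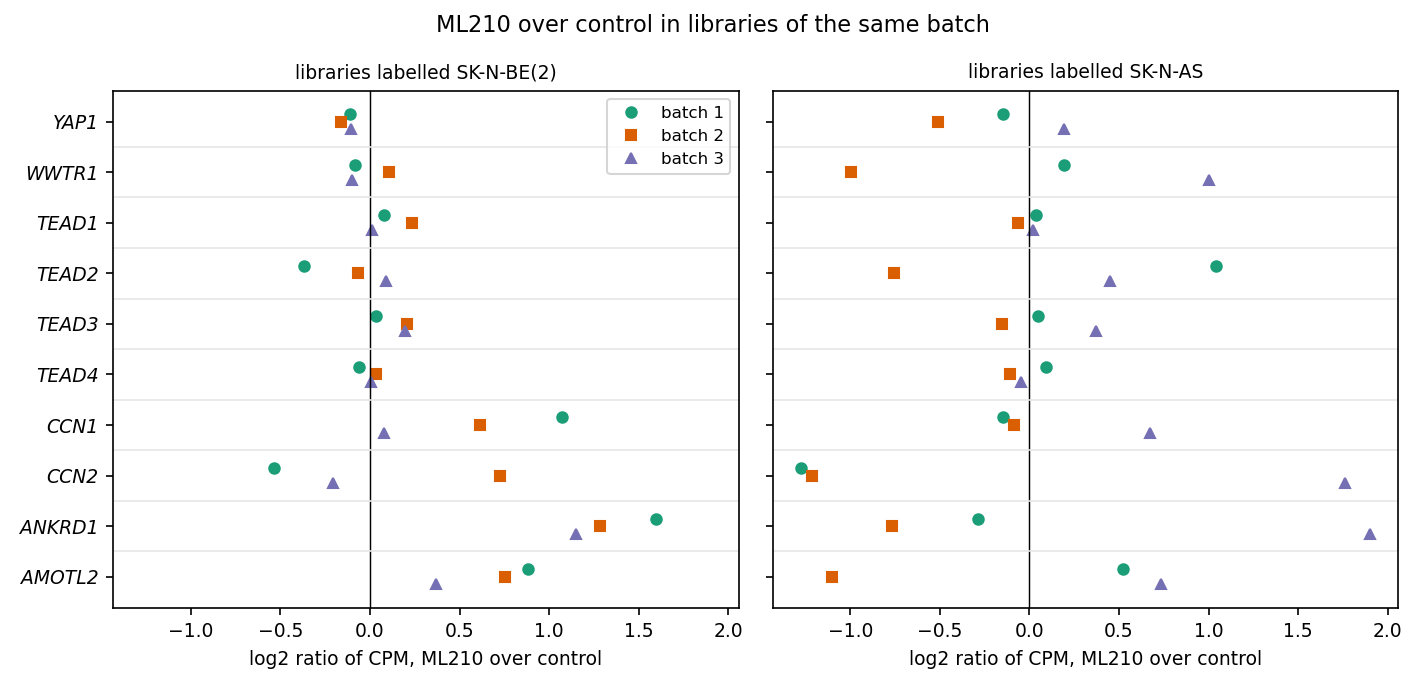
Log2 ratio of ML210 over control within the same batch for the 10 genes, in BE(2)-labelled (left) and AS-labelled libraries (right), with 1 point per batch. CCN1, ANKRD1 and AMOTL2 lie right of 0 in all 3 BE(2)-labelled batches, and the AS-labelled points of most low genes fall on both sides of 0.

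The upstream Hippo kinases and scaffolds were read under both labels. All 14 genes of this list were tested. In controls 8 were higher and 5 lower in BE(2)-labelled libraries, with a median of 0.37, against 33.9% higher and 35.2% lower among all genes. Scaled by library totals, 8 were higher and 4 lower, as MOB1B was no longer called, beside 8575 higher and 5550 lower of all 20304 genes. The kinase gene LATS2, itself a known YAP target, was at 2.81, 1.97 and 1.88 CPM in BE(2)-labelled controls and 0.104, 0.272 and 0.158 CPM in AS-labelled controls, a log2 difference of 3.65 ± 0.50 (adjusted p 1.54e-05). Its relative LATS1 went the other way, at -0.98 ± 0.08 (adjusted p 5.63e-08), as did NF2, the merlin gene that activates LATS kinases, at -1.69 ± 0.06 (adjusted p 1.9e-11). WWC1 (KIBRA), a scaffold that acts with merlin, was higher by 3.21 ± 0.16 (adjusted p 4.91e-10). The other higher genes were STK3, STK4, SAV1, MOB1A, TAOK3 and MAP4K4, by 0.25 to 1.28, and the other lower ones were MOB1B, TAOK1 and TAOK2, by -0.33 to -0.72.

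Partners and neighbours of YAP and TAZ were also mixed. Of 15 genes, 12 were tested, and 7 were higher and 3 lower in BE(2)-labelled controls, where 33.9% of all genes were higher and 35.2% lower. Scaled by library totals, 9 were higher and 2 lower, beside 8575 higher and 5550 lower of all 20304 genes. WTIP and PTPN13 were then called higher, and VGLL4 was no longer called. FAT1, a giant cadherin upstream of the pathway, was higher by 4.50 ± 0.21 (adjusted p 5.73e-09), and AJUBA, a LIM protein that binds LATS kinases, by 3.37 ± 0.32 (adjusted p 4.05e-06). The 3 lower genes were AMOTL1, LIMD1 and VGLL4. AMOTL1, the sister of AMOTL2, had 98.4, 98.7 and 98.7 CPM in BE(2)-labelled controls and 394, 448 and 438.1 CPM in AS-labelled controls, a log2 difference of -2.11 ± 0.06 (adjusted p 4.57e-12). The angiomotins therefore split between the labels, AMOTL2 higher and AMOTL1 lower in BE(2)-labelled cells. VGLL1 and VGLL2 had no read in any library, and VGLL3 was not tested.

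A wider list of 18 published YAP and TAZ target genes had 17 tested members; LATS2 and PTPN14 also stand in the lists above. In controls 11 of them were higher and 3 lower in BE(2)-labelled libraries, with a median log2 fold change of 1.73, against 33.9% higher and 35.2% lower among all genes. In ML210 libraries 12 were higher and 2 lower, beside 34.6% and 34.5% of all genes. CRIM1 was higher in controls by 4.71 ± 0.28 (adjusted p 8.12e-08), NUAK2 by 3.16 ± 0.23 (adjusted p 2.4e-08), DOCK5 by 2.22 ± 0.11 (adjusted p 3.51e-10) and NT5E by 1.73 ± 0.15 (adjusted p 6.67e-07). The 3 lower genes were FJX1, RBMS3 and TGFB2. Several genes of this list are also known from mesenchymal cells, whose markers were higher in the same libraries, and their part in these counts was not tested. With ML210, 0 of the 17 were called in either label by edgeR, and 3 in BE(2)-labelled and 1 in AS-labelled libraries had an unadjusted p under 0.05, as did 13.5% and 6.89% of all genes.

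Genes of the actin-regulated SRF and MRTF pathway, which shares targets such as CCN1 and CCN2 with YAP, gave counts in both directions. Of 15 tested, 5 were higher and 7 lower in BE(2)-labelled controls, where 33.9% of all genes were higher and 35.2% lower, so the higher share was that of all genes. In ML210 libraries 8 were higher and 3 lower, beside 34.6% and 34.5% of all genes. Scaled by library totals, the controls gave 5 higher and 3 lower, beside 8575 higher and 5550 lower of all 20304 genes. The list's median then turned to 0.12, against -0.12 with TMM. CNN2 was higher in controls by 3.59 ± 0.16 (adjusted p 6.66e-10), and the co-activator gene MRTFA was lower, at -1.495 ± 0.07 (adjusted p 2.92e-10). FHL1, a LIM-domain gene, was the only one of the list called with ML210 in BE(2)-labelled libraries, where 1.37% of all genes were. It had 256.3, 216.5 and 189.3 CPM with ML210 against 183.4, 162.2 and 151.2 CPM in controls. Its log2 fold change was 0.41 ± 0.09 (adjusted p 0.0486), and it was called in 1 of 6 fits that left out 1 of these libraries, the one without ML210 batch 3. Fitted with only the BE(2)-labelled groups, it was not called (adjusted p 0.177).

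Of 6 genes through which YAP or TAZ have been linked to ferroptosis in other cancer cells, 3 were higher and 3 lower in BE(2)-labelled controls, where 69.2% of all genes differed. EMP1 (3.10 ± 0.45, adjusted p 0.000167), ANGPTL4 (3.65 ± 0.59, adjusted p 0.000347) and NOX4 were higher, and NOX4 had only 60 reads in BE(2)-labelled and 2 reads in AS-labelled controls. ACSL4, whose enzyme loads membranes with oxidisable lipids, was lower at -0.70 ± 0.07 (adjusted p 8.49e-07), as were TFRC at -0.59 ± 0.11 (adjusted p 0.000535) and CYBB, the gene of the oxidase NOX2, at -3.28 ± 0.50 (adjusted p 4.69e-05). Of all genes, 1.37% were called with ML210 in BE(2)-labelled and 0.0296% in AS-labelled libraries. Of the 6, only TFRC, the transferrin receptor, was called with ML210 within a line label. It had 461.7, 385.1 and 306.5 CPM in BE(2)-labelled ML210 libraries and 248.4, 236.6 and 248.2 CPM in BE(2)-labelled controls, without overlap, and a log2 fold change of 0.65 ± 0.11 (adjusted p 0.0188). In 4 of 6 fits that left out 1 of these libraries it was not called, at adjusted p 0.0611 to 0.0713, nor was it with only the BE(2)-labelled groups in the fit (adjusted p 0.0933). For the mean of both responses none of the 6 was called by edgeR with TMM, where 1.23% of all genes were. With library totals TFRC (adjusted p 0.0384) and ANGPTL4 (adjusted p 0.0477) were called, beside 237 higher and 75 lower of all 20304 genes.

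ANGPTL4, a secreted regulator of lipid uptake named as a TAZ target in ovarian cancer cells, was above its control in both labels. It had 35.1, 33.6 and 29.5 CPM in BE(2)-labelled ML210 libraries and 11.4, 8.33 and 7.24 CPM in BE(2)-labelled controls, against 1.08, 3.26 and 3.49 CPM in AS-labelled ML210 libraries and 0.156, 0.721 and 1.33 CPM in AS-labelled controls. The groups did not overlap in BE(2)-labelled libraries, but the log2 fold change of 1.87 ± 0.49 was not called (adjusted p 0.113), nor was that of 1.88 ± 0.60 in AS-labelled libraries (adjusted p 0.587). CCN3, a further CCN gene, was called higher in BE(2)-labelled than in AS-labelled ML210 libraries, at 1.57 ± 0.34 (adjusted p 0.00101), and in controls with library totals (0.999, adjusted p 0.0198) but not with TMM (0.75 ± 0.35, adjusted p 0.0689). CCN4, CCN5 and CCN6 were too low to be tested.

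Genes most like a member were sought by the correlation of log2 CPM deviations from the group means over 12 libraries, among 10392 protein-coding genes, and are given as a description. YAP1 was most like TYRP1 (r = 0.99), GBP4 (r = 0.989) and PTPN14 (r = 0.987), each of which had under 6 CPM in every AS-labelled library and varied there by batch as YAP1 did. Among the genes most like CCN1 were GPRASP2 (r = 0.994) and FOSL1 (r = 0.965). FOSL1, the AP-1 subunit FRA-1, had 90.8, 62.4 and 44.7 CPM in BE(2)-labelled ML210 libraries and 42.5, 35.9 and 30.6 CPM in BE(2)-labelled controls, high in batch 1 with ML210 as CCN1 was. CCN2 was most like ZNF585B (r = 0.933), EFCAB7 (r = 0.905) and MAGEE1 (r = 0.905). The libraries of each group differ in their batch label, so these values may describe batch as well as gene.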

How the data were processed

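Messenger RNA of 12 libraries was sequenced. The deposited table held raw whole-number counts per gene. The submitters' processing notes name HISAT2 2.2.1, featureCounts 2.0.5 and the build GRCh38, besides FastQC and Trimmomatic 1.4. How strand and multi-mapping reads were handled, and which annotation was used, is not given in the sources used here, and reads of the antisense or overlapping genes of YAP1, WWTR1, TEAD2, CCN2 and AMOTL2 (0, 100, 1693, 6 and 112 reads in all libraries) may be mixed in.

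The test was edgeR 4.0.16 (R 4.3.3) on these counts: filterByExpr by group, TMM, all libraries in 1 fit by group with 8 residual degrees of freedom, the robust quasi-likelihood test, two-sided, and Benjamini-Hochberg adjustment over 20304 genes, called under 0.05. DESeq2 1.42.0 was an alternative, as were other scalings, filters, a replicate block and leaving out each library. CPM used TMM-scaled totals. Lengths for CPM per kb are the exon union of each gene in GENCODE 29. The longest transcript was an alternative length for the TEAD shares and the ratio of WWTR1 to YAP1, with values not given here. The fit was tested on simulated data for the AS-labelled ML210 comparison only, with the same dispersion for every gene. That test does not show which changes could be detected in members that vary more. The members, lists and tests were chosen with earlier results of these data known. The naming rule took all 10 members, up to 4 called genes per list and comparison with the smallest adjusted p, any gene needed for a count of 5 or fewer, and 3 genes most like each of YAP1, CCN1 and CCN2, of which 1 is not reported here.

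Same-numbered libraries share a batch label and were treated as paired in ratios. These ratios come from log2 CPM with a prior count of 2, so for low genes they lie closer to 1 than ratios of the printed CPM. Deviations from the group mean correlated between same-batch ML210 and control libraries at 0.096, 0.12 and 0.169 labelled SK-N-BE(2) and 0.357, 0.068 and 0.121 labelled SK-N-AS, for batches 1, 2 and 3. Between different batches labelled SK-N-BE(2) they correlated at -0.1 to -0.007. Labelled SK-N-AS, control batch 2 correlated with ML210 batch 3 at 0.189, and control batch 3 with ML210 batch 2 at 0.125. The other different-batch values labelled SK-N-AS lay between -0.269 and -0.166. These values therefore do not bear out the pairing of AS-labelled batches 2 and 3, whose ratios rest on the batch labels.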

Additional observations from a re-analysis of the deposited data

Results flagged for a closer look

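For 4 genes of the pathway lists, ML210 lay on opposite sides of control in all 3 same-batch pairs of each label: higher in 3 of 3 BE(2)-labelled pairs and lower in 3 of 3 AS-labelled pairs. Of all genes, 20.5% were higher in 3 of 3 BE(2)-labelled pairs and 19.3% lower in 3 of 3 AS-labelled pairs. The share with both was not counted, so these 4 genes are not shown to exceed it. The difference of the responses, BE(2)-labelled minus AS-labelled, was tested with edgeR's quasi-likelihood test and called for none of them. It was 0.231 on the log2 scale for NF2, the merlin gene (adjusted p 0.601), 0.623 for the actin gene ACTB (adjusted p 0.413), 0.993 for the actin gene ACTG1 (adjusted p 0.508) and 0.5998 for the tropomyosin gene TPM1 (adjusted p 0.741). ACTG1 had 3104, 2213 and 1532 CPM in BE(2)-labelled ML210 libraries and 1607, 1379 and 1334 CPM in BE(2)-labelled controls, against 1808, 1862 and 1889 CPM in AS-labelled ML210 libraries and 2352, 2304 and 2323 CPM in AS-labelled controls. None of the 10 members showed such a pattern. Among the adrenergic marker genes, HAND2 had the same pattern, and ISL1 was lower in 3 of 3 BE(2)-labelled and higher in 3 of 3 AS-labelled pairs; the difference was called for neither (0.179, adjusted p 0.729, and -0.212, adjusted p 0.812, by edgeR).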

How the results depend on the processing

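For ML210, its mean and its difference, 0 of 10 members were called under every alternative fitted. Between the line labels 8 were called, except that in controls it was 9 with the replicate block over all libraries and without the AS-labelled control of batch 3 (ANKRD1 each time) and without the BE(2)-labelled control of batch 1 (CCN2). It was 7 in controls and in ML210 libraries with only batch 1 of the AS-labelled libraries (TEAD1 lost). Only the groups compared could not be fitted for the mean and the difference. Called members kept their direction and call, except TEAD1 against batch 1 of the AS-labelled libraries alone, as given above. With that restriction CCN1 was 5.12 in controls and 5.97 in ML210 libraries, TEAD2 6.23 and TEAD4 4.53 in controls, on the log2 scale.

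The replicate block over all libraries gave log2 values of -0.0002 for TEAD1 and 0.213 for ANKRD1 in the AS-labelled ML210 response, and -0.282 for ANKRD1 between the ML210 libraries. The block within each line label gave 0.0 for TEAD1 and 0.18 for ANKRD1 in the AS-labelled response and 0.0 for YAP1 in the difference of responses. Beside the calls of ANKRD1 given above, the block changed no call of a member.

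Other values of uncalled members that changed sign, on the log2 scale, were as follows. With library totals, the AS-labelled response was 0.041 for YAP1, 0.0404 for TEAD4 and 0.0076 for ANKRD1, and TEAD4 gave 0.0201 for the mean and -0.0406 for the difference. TEAD4 gave -0.0184 for the difference with no filter and 0.0005 for the BE(2)-labelled response with at least 1 CPM in 3 libraries. Without the batch 1 libraries, the BE(2)-labelled response was 0.0003 for WWTR1, 0.0099 for TEAD2, 0.0161 for TEAD4 and 0.366 for CCN2. With only batch 1 of the AS-labelled libraries, ANKRD1 gave -0.611 between the ML210 libraries. The cause of these changes was not tested; all were of values whose confidence interval included 0.

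Leaving out 1 library at a time turned the sign of members near 0. In the AS-labelled response the range was -0.674 to 0.38 for YAP1, -0.318 to 0.436 for WWTR1, -0.111 to 0.0927 for TEAD1, -0.238 to 0.582 for TEAD2, -0.0878 to 0.316 for TEAD3, -0.255 to 0.162 for TEAD4, -0.123 to 0.604 for CCN1, -0.889 to 0.047 for CCN2, -0.504 to 0.776 for ANKRD1 and -0.136 to 0.369 for AMOTL2. In the BE(2)-labelled response it was -0.0961 to 0.0318 for WWTR1, -0.25 to 0.0324 for TEAD2, -0.0695 to 0.0086 for TEAD4 and -0.592 to 0.783 for CCN2. For the mean it was -0.401 to 0.126 for YAP1, -0.173 to 0.204 for WWTR1, -0.0037 to 0.0984 for TEAD1, -0.169 to 0.241 for TEAD2, -0.131 to 0.0776 for TEAD4 and -0.52 to 0.205 for CCN2. For the difference it was -0.508 to 0.546 for YAP1, -0.464 to 0.29 for WWTR1, -0.0017 to 0.215 for TEAD1, -0.681 to 0.14 for TEAD2, -0.169 to 0.235 for TEAD3, -0.17 to 0.248 for TEAD4 and -0.22 to 1.15 for CCN2. ANKRD1 between the ML210 libraries ranged from -1.05 to 0.44.

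The count of all genes called with ML210 in BE(2)-labelled libraries, 279 here, was 556 with no filter, 455 and 1386 with the block over all libraries and within each label, 51 with only the groups compared, 800 with DESeq2, 30 without batch 1 and 48 to 1242 when 1 library was left out, the highest without the ML210 library of batch 3. In AS-labelled libraries it was 6, against 33, 38, 21 and 53 with no filter, the block within each label, only the groups compared and DESeq2, and 3 to 6 when 1 library was left out. For the mean it was 250, against 531 with no filter, 1240 with the block within each label and 832 with DESeq2. For the difference it was 1, against 24, 85 and 45 under the same alternatives. CCN2, ANKRD1 and the AS-labelled YAP1 values rest on few reads, so their ratios carry wide intervals.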
